A study of Mus musculus with 3 samples.

Results

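The 83 genes described here encode the proteins of the cytoplasmic ribosome, 51 of the large subunit and 32 of the small subunit, out of 55536 mouse genes in the tables. They were chosen by symbol (Rpl or Rps followed by a number, with Rplp0, Rplp1, Rplp2 and Rpsa added) and by having at least 1 transcript annotated as protein coding. A further 6 genes matched the symbol rule but had no such transcript and were not included. RNA was measured in 3 libraries of 1 group: macrophages grown from bone marrow of C57BL/6J mice, treated with lipid A (the membrane anchor of lipopolysaccharide, sensed by Toll-like receptor 4) at 100 ng/ml for 25 minutes, from which the chromatin fraction was taken and total RNA sequenced after depletion of ribosomal RNA. The labels number the libraries as biological replicates 1, 2 and 3, made from 1000, 250 and 500 ng of RNA, and give them the same donor identifier, with age and sex not collected. Nothing in the labels says that they came from separate animals, so p-values do not measure the spread between animals. No untreated cells and no other cell fraction belong to the group, so no effect of lipid A and no difference from cytoplasmic RNA can be read from these values.

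Ribosomal protein genes are transcribed at high rates in growing cells, and each protein is needed in one copy per ribosome apart from the stalk proteins. Chromatin-associated RNA holds transcripts that are still attached to the template or not yet released, so introns are read together with exons. Many ribosomal protein genes carry small nucleolar RNAs, guides for the modification of ribosomal RNA, inside their introns, and in human cells RPL3, RPL10A and RPL12 are known to act on the splicing of their own transcripts.

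Transcripts in the annotation carry a type, and "retained intron" marks a transcript model that includes sequence which other models of the gene splice out. The 83 genes had 176 such models in 64 genes, beside 232 protein-coding models, 65 processed transcripts (no open reading frame assigned) in 27 genes and 25 models marked for nonsense-mediated decay in 19 genes. The introns wholly inside a retained-intron model numbered 117 in 43 genes. All 117 began with GT and ended with AG, and their median length was 262 nt (76 to 2369). The splice sites of the genes with the highest and lowest shares of counts on such models follow here to show what such introns look like; per gene, the intron is from the model with the most counts among those that hold a whole intron. Each donor sequence has up to 6 exon bases before the intron and each acceptor has 6 after it, capitals mark the first and last pair of intron bases, and coordinates are mm10 with introns numbered along the coding transcript.
Rpl35a intron 4 of 4, chr16:33058824-33060097, plus strand, donor: cgtgtgGTgagtgccaatagcaaaat
Rpl35a intron 4 of 4, acceptor: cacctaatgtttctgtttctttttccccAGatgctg
Rpl3 intron 3 of 9, chr15:80081032-80081614, minus strand, donor: gaactgGTaagaggctcttgggttcc
Rpl3 intron 3 of 9, acceptor: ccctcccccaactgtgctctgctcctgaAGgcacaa
Rpl22l1 intron 1 of 3, chr3:28805544-28806502, plus strand, donor: gcgccgGTgagtgcgcgcgcgtgtgc
Rpl22l1 intron 1 of 3, acceptor: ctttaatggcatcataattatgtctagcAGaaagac
Rpl10a intron 3 of 5, chr17:28329048-28329373, plus strand, donor: cgtcagGTtggcaccgctctaacccc
Rpl10a intron 3 of 5, acceptor: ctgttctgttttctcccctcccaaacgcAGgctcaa
Rpl5 intron 4 of 7, chr5:107903404-107903665, plus strand, donor: cgcaggGTatgtatataatatcttca
Rpl5 intron 4 of 7, acceptor: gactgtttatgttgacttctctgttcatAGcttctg
Rps12 intron 3 of 5, chr10:23786005-23786763, minus strand, donor: agacaaGTacgtgtctcagtctcaat
Rps12 intron 3 of 5, acceptor: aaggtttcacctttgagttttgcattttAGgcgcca
Rpl18 intron 4 of 6, chr7:45719637-45719919, plus strand, donor: cgcatgGTtagtagtcagccagaggg
Rpl18 intron 4 of 6, acceptor: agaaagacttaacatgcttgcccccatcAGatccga
Rpl18 stands for the lowest shares; Rps15a and Rpl15, also among the 3 lowest, had no intron wholly inside a retained-intron model. Rps12 also shows a guide RNA inside such an intron. The Snord100 gene itself was listed at 0 counts in all 3 libraries. So was every other small nucleolar RNA gene of similar length inside the 83 genes, so this value does not show that the guide was absent. The whole 224-nt intron 5 of 6 (chr10:23785678-23785901, minus strand) follows, with the 74 bases of the box C/D guide Snord100 in capitals.
Rps12 intron 5 of 6: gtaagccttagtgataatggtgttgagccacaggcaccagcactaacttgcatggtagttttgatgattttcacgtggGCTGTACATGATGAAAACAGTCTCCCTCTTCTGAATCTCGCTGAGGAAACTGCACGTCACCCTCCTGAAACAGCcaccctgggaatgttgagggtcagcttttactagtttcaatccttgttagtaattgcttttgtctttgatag

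The libraries held 13525994, 19230763 and 19207049 estimated counts for replicates 1, 2 and 3. A ribosomal DNA locus on chromosome 17 took 8.46%, 27.1% and 23.1% of them, and the 83 ribosomal protein genes took 0.0794%, 0.101% and 0.0767%. All 10 macrophage markers reached 1 TPM (transcript abundance, a count divided by length and scaled to the library, here over genes of at least 300 nt), from 19.5 TPM to 535 TPM for Csf1r, the receptor for macrophage colony-stimulating factor. No marker of B cells, erythroid cells or neutrophils reached 1 TPM, and the 4 T-cell markers were at 0 counts.

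Nearly all ribosomal protein genes were present at moderate levels in chromatin RNA. Of the 83, 80 reached 1 TPM, 70 reached 10 TPM and 4 reached 100 TPM, and the median gene was at 21.2, 28.4 and 21.1 TPM in replicates 1, 2 and 3. Protein-coding genes at 1 TPM or more had a median of 16.5 TPM, and the 78 genes for mitochondrial ribosomal proteins, which build the separate ribosome of mitochondria, had a median of 5.61 TPM. Large-subunit genes had a median of 23.7 TPM and small-subunit genes 22.3 TPM.

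Among large-subunit genes, Rpl10, whose protein joins late in subunit assembly, was highest, at 288, 321 and 242 TPM in replicates 1, 2 and 3 (284 ± 39.7, SD, n = 3). Its lowest library lay above the highest library of every other member. Rpl10a, of the mobile L1 stalk, stood at 84.0, 160 and 104 TPM. Rpl3, a protein near the catalytic centre, stood at 65.9, 144 and 97.0 TPM. In both genes replicate 2 was highest and replicate 1 lowest, and their ranges overlapped. Rpl7a (74.4 ± 7.57 TPM), Rpl9 (72.8 ± 14.8 TPM) and Rpl23 (67.3 ± 13.6 TPM) followed, with overlapping libraries. In the small subunit Rps9, a protein of the subunit body, was highest at 118, 140 and 128 TPM, and Rps19, mutated in Diamond-Blackfan anaemia, was at 67.9 ± 8.27 TPM.

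The stalk proteins recruit translation factors to the ribosome. Rplp0, the stalk base, was at 40.9 ± 2.83 TPM, Rplp1 at 19.4 ± 5.38 TPM and Rplp2 at 23.7 ± 5.76 TPM (SD, n = 3), so the base gene lay above both of its partners in each library. Rpsa, first described as a laminin receptor and a protein of the small subunit, was at 50.2 ± 11.3 TPM.

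Genes known for restricted or alternative forms were at the bottom of the order. Rpl3l, known from muscle, and Rpl10l, known from testis, had 0 counts in all 3 libraries. A count of 0 allows up to 3 counts, or 0.222, 0.156 and 0.156 CPM (a count relative to the library total) for replicates 1, 2 and 3, for counting error only. Rpl39l, known from testis, had 1 count in replicate 2 and none in the others. Rps27l, a paralogue of Rps27 induced by p53, was at 3.85 ± 2.17 TPM from 4 to 9 counts a library. Above these absent or rare forms lay Rpl29 at 5.24 ± 2.18 TPM and Rpl39 at 4.78, 7.40 and 4.82 TPM in replicates 1, 2 and 3. The Rpl39 levels rest on 8, 20 and 12 counts. In the other deposited quantification, of kallisto type and with higher library totals, Rpl39 had 173, 167 and 135 counts. Rps27l had 51, 41 and 25 there. By those counts Rpl39 was not among the lowest members. The paralogues Rpl22l1 and Rpl7l1 were detected at 13.3 ± 0.19 TPM and 10.8 ± 1.88 TPM.

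**Figure D1:**
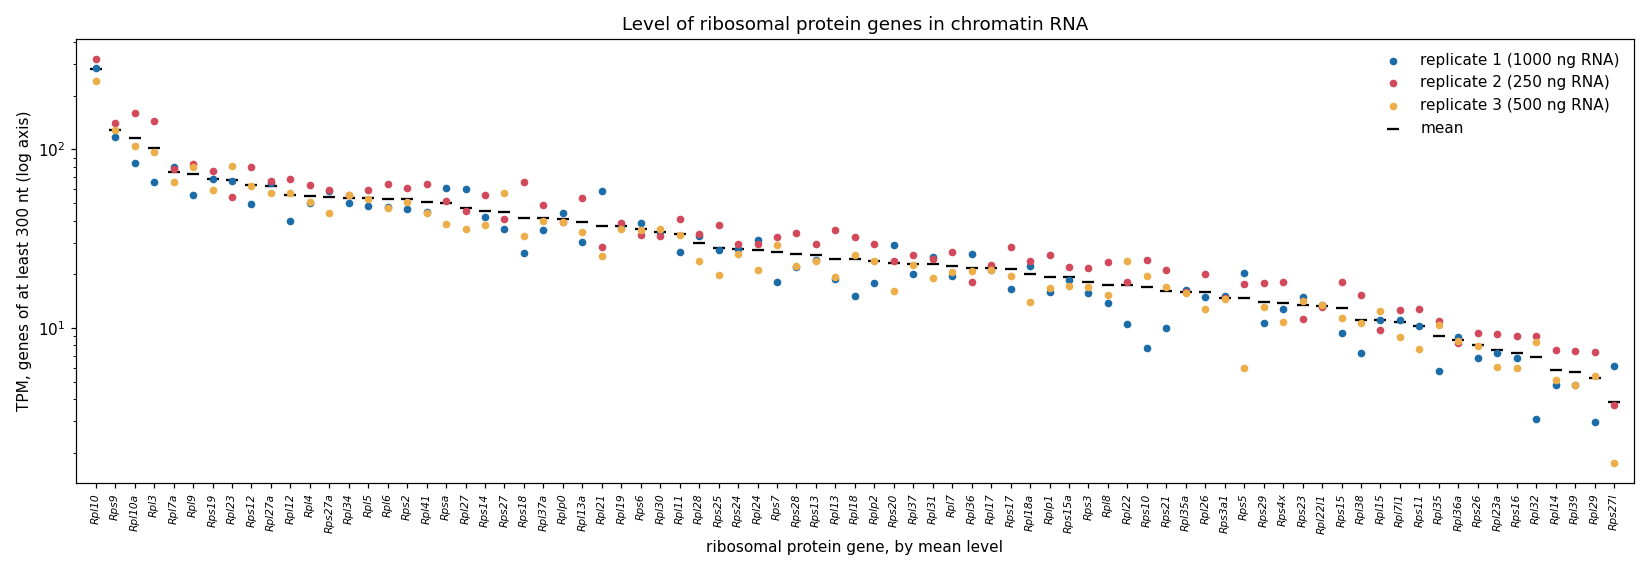
Level of 79 of the 80 ribosomal protein genes at 1 TPM or more, in TPM on a log axis, with 1 point per library and a bar at the mean. Rpl10 stands apart at 242 to 321 TPM, and replicate 2 (250 ng of RNA) is the highest point for many genes.

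Retained-intron models took the largest part of the counts on ribosomal protein genes. Summed over the 83 genes, such models took 54.3%, 58.3% and 54.4% of the estimated counts in replicates 1, 2 and 3, protein-coding models 37.2%, 33.9% and 36.6%, and processed transcripts and decay models the rest. Whether a read on a retained-intron model came from RNA that had not yet been spliced or from an RNA that kept the intron cannot be told apart in these tables. A share for a single gene was taken where a retained-intron model was annotated and each library had at least 50 counts, which 44 of the 83 met: 20 had the annotation but fewer counts, and 19 had no such model. The median share over these 44 genes was 59.5%, 62.4% and 62.3% in the 3 libraries, against 28.1%, 26.0% and 24.0% over all 5624 genes that met the same conditions. The share passed 50% in 25 of the 44 genes (56.8%, against 25.0% of all 5624) and 80% in 11 (25.0%, against 5.42%). The median was 63.1% in 29 large-subunit genes and 62.1% in 15 small-subunit genes.

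Other genes of protein synthesis lay on both sides of all genes. The median share was 54.8% in 20 mitochondrial ribosomal protein genes and 54.7% in 13 translation genes, a list of elongation and initiation factors and other genes whose messages start with a pyrimidine tract. In 21 ribosome biogenesis genes, which make and assemble ribosomal RNA, it was 21.9%.

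The 4 genes with the highest shares, Rpl35a, Rpl3, Rpl22l1 and Rpl10a, had from 1.09% to 2.67% of their counts on coding models. In Rpl35a, whose gene is mutated in some Diamond-Blackfan anaemia, retained-intron models took 98.1%, 97.3% and 96.5% of counts. In Rpl3 they took 97.4%, 96.5% and 97.1%, or 509, 1718 and 1162 counts beside 5.16, 27.0 and 15.6 on coding models. In Rpl10a they took 94.0%, 94.7% and 94.2%. The libraries thus lay within 2 points of each other for these genes. Rpl22l1, a paralogue of Rpl22, had 96.4% ± 1.89 (SD, n = 3), Rpl5, which binds 5S ribosomal RNA, 89.8% ± 5.17, Rps12 84.9% ± 2.39, Rpl30 84.4% ± 2.76 and Rps28 84.2% ± 6.57. Rpl10, the most abundant member, had 82.8% ± 0.56. In these last 5 genes coding models took from 10.2% in Rpl5 to 17.2% in Rpl10.

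How the counts were spread over models differed between genes. In Rpl3, the model Rpl3-204, which holds the 583-nt intron 3 whose splice sites are shown above, had 301, 1144 and 825 counts in replicates 1, 2 and 3, with posterior standard deviations between 13.0 and 19.4 counts from the authors' quantification. A second model of the gene, Rpl3-206, holds a 515-nt intron (5 of 9) with a small RNA gene inside it and had 181, 498 and 301 counts. Replicate 2 was highest and replicate 1 lowest for both models. In Rpl10a, Rpl10a-206 with the 326-nt intron 3 had 237, 580 and 483 counts, or 52.4%, 44.8% and 62.0% of the gene. Rpl35a-206, which holds 2 introns, took 87.2% of the counts of Rpl35a. The counts of Rpl5 were spread over several models that hold only parts of introns, and Rpl5-203, with the intron shown above, took 5.5% of the gene. In Rpl10 the largest model, Rpl10-207, took 28.0%.

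At the other end, Rps15a had 3.19%, 2.18% and 2.28% of its counts on its retained-intron model, with 245, 397 and 295 counts on coding models. Rpl18 had 6.67% ± 2.34, Rpl15 7.21% ± 5.85, Rpl19 8.40% ± 2.15, Rpl7l1 8.65% ± 3.74 and Rps20 11.8% ± 4.59 (SD, n = 3). The libraries of Rps15a overlapped those of Rpl15 and no other of these genes, while the other 5 overlapped in every pair, and none of the 6 reached the lowest library of Rpl3, Rpl10a or Rpl35a. Rplp0 had 12.9% ± 6.78 and Rpsa 27.0% ± 7.72, with replicate 1 highest and replicate 3 lowest in both. Rplp2 had too few counts for a share, and Rplp1 has no retained-intron model.

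**Figure D2:**
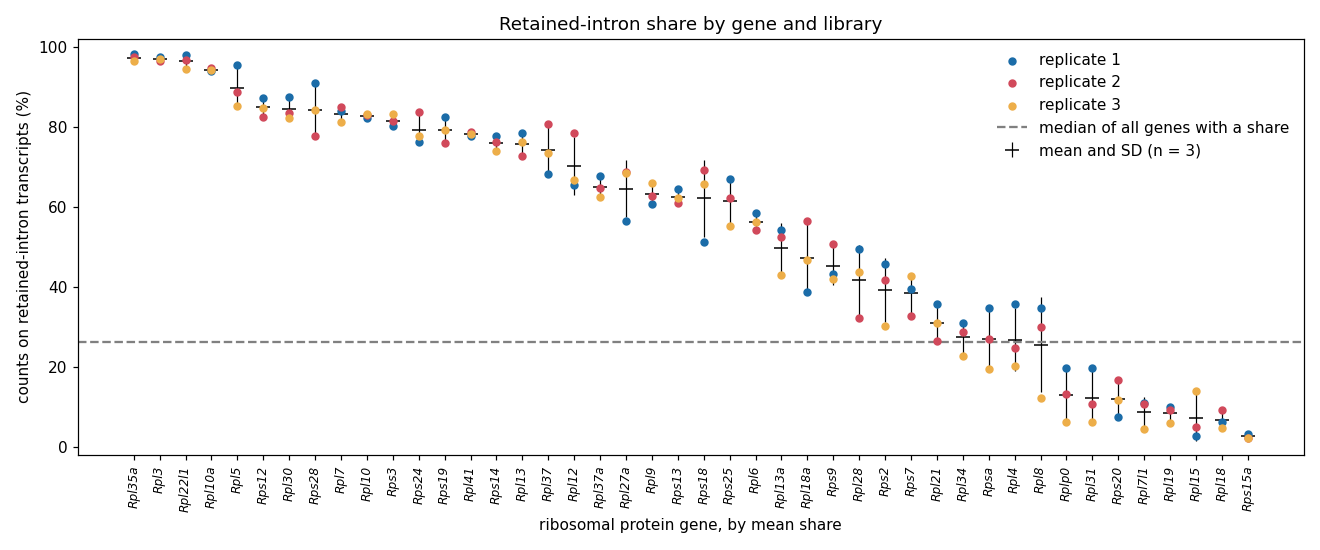
Percent of each gene's estimated counts on retained-intron models for the 44 ribosomal protein genes with a share, 1 point per library, bars for mean and SD (n = 3), dashed line at the 26.1% median of all genes. Shares run from 97.3% in Rpl35a to 2.55% in Rps15a.

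Models of the other types carried a few genes. Decay models took 17.1%, 13.8% and 23.0% of the counts of Rpl12, a protein at the stalk base, 17.8% ± 4.38 of Rps13 and 12.6% ± 6.55 of Rpl13a (SD, n = 3). Processed transcripts took 85.3% ± 4.14 of Rps27a, which is made as a fusion with ubiquitin, 84.1% ± 6.12 of Rpl7a and 78.2% ± 7.08 of Rpl11, the partner of Rpl5 on 5S ribosomal RNA. Rps27a, Rpl7a and Rpl11 have no retained-intron model and so no share.

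Retained-intron models cover a larger percent, and fewer bases, of the introns of these genes than of other genes. Retained-intron models covered a median of 52.1% of the intron bases of the 44 genes and 5.12% of those of the 5580 other genes, whose introns summed to a median of 26049 bases against 2051. In bases, the median inside such models was 916.5 in the members and 1306 in the others. The share and this coverage had a Spearman correlation of 0.59 over the 44 genes and 0.62 over the others, as a description across genes that share libraries. Where models covered 0 to 10% of intron bases, the median share was 8.65% in 7 ribosomal protein genes and 16.9% in 3770 others. In the intervals of 10 to 25%, 25 to 50% and 50 to 75% it was 43.2%, 38.6% and 58.9% in 6, 8 and 10 members, and 44.5%, 55.0% and 68.7% in the other genes. From 75 to 100% it was 79.3% in 13 members and 70.3% in 76 others. The members thus lay below the other genes in 4 of the 5 intervals and above them in the last; the part of coverage in the higher overall share was not tested. Rpl3 and Rps14 stood away from this order, with shares of 97.0% and 76.0% at a coverage of 12.1% and 3.7%.

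**Figure D3:**
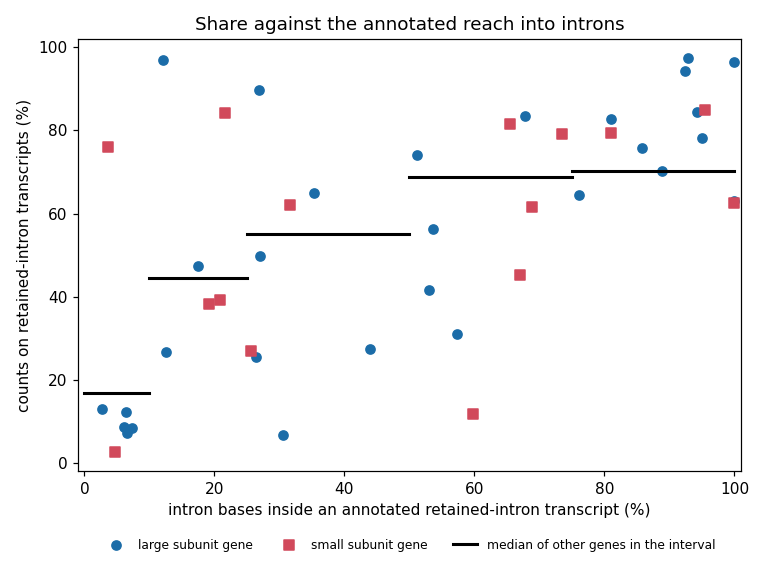
Retained-intron share (%) of the 44 ribosomal protein genes against the percent of their intron bases inside an annotated retained-intron model, with black lines at the median share of other genes in 5 intervals. Members with models over 75 to 100% of intron bases have a median share of 79.3%, those under 10% a median of 8.65%.

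Small nucleolar RNA genes, 59 in all, lay inside 30 of the 83 genes, and 19 of them were in introns wholly inside a retained-intron model. The median share was 64.6% in the 19 genes with a guide RNA and a share, and 61.5% in the 25 without one. Genes on the opposite strand overlapped 23 members, and the sources used here do not say how strand was counted, so reads from the pair cannot be told apart if strand was not used. The median share was 70.2% in 17 genes with such an overlap and 56.3% in 27 without. Of these opposite-strand genes, Ndst1 at Rps14 (6013), Syngr1 at Rpl3 (3945) and Lrsam1 at Rpl12 (3246) had the most counts over the 3 libraries. These counts and those below are of the whole opposite-strand gene. How many of its reads lay inside the overlap was not measured. The genes with the highest shares, Rpl35a, Rpl3, Rpl22l1, Rpl10a and Rpl5, all had an antisense overlap. The overlapping genes had 45, 3945, 0, 51 and 205 counts in that order. Genes with low shares had such overlaps too, Rpl31 with Tbc1d8 (2365 counts, share 12.2%) and Rpl18 with Sphk2 (1997 counts, share 6.67%). No antisense gene overlaps Rpl10 or Rps12. The part of antisense reads in these shares was not tested.

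Ribosomal protein genes have many processed pseudogenes, which copy the exons and not the introns. Of the 83 genes, 73 shared at least 10% of the 50-base words of their coding transcripts with transcripts of another gene, and the median was 35.9% for coding and 25.8% for retained-intron transcripts. Any other gene was counted here, on either strand and not only pseudogenes, so small nucleolar RNA genes and antisense neighbours count as well. Shared words were not counted for genes outside the 83, so no share over all genes stands beside these values. Rps25, Rpl37a and Rps24 shared words with 286, 203 and 195 other genes. The 39 genes with a share and at least 10% of shared words had a median share of 63.1%, and the 5 below that limit had 11.8%. Levels of members with near-identical copies are uncertain to the extent that reads were split, and the part of copies in the shares was not tested. In the genes with a share, the authors' posterior standard deviation was at most 4.23% of a gene's count, with a median of 0.56%.

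Both deposited quantifications gave a similar order of genes and different sizes. Over the 44 genes the shares from RSEM and from the kallisto-type table had a Spearman correlation of 0.88 (a description; both start from the same libraries), with a median of 52.3% in the second. The largest gaps were in Rpl7 (83.3% against 41.9%), Rpl35a (97.3% against 71.3%), Rpl41 (78.2% against 52.5%) and Rps14 (76.0% against 52.1%), all higher from RSEM. In the other direction the largest were in Rpl12 (70.2% against 93.1%) and Rpl31 (12.2% against 29.3%). Rpl3 (97.0% against 94.1%) and Rpl10a (94.3% against 94.4%) differed by less than 3 points. With the deposited TPM in place of counts, which takes transcript length into account, the median over members was 59.3% and that over all genes 42.8%.

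**Figure D4:**
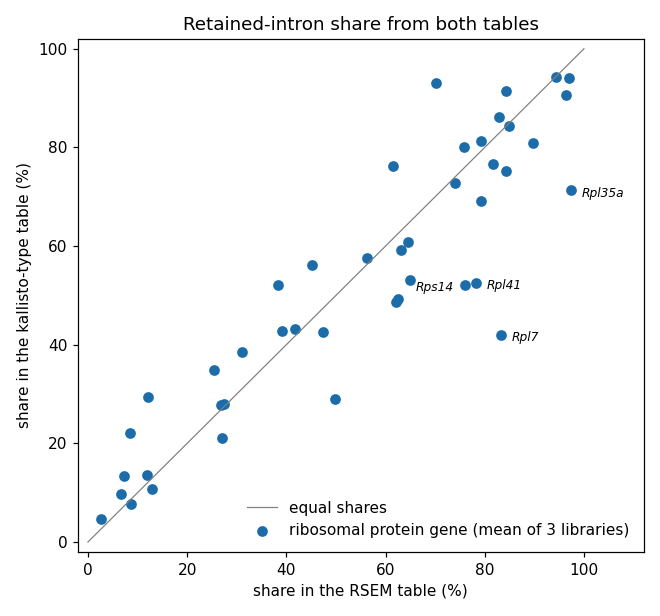
Mean retained-intron share (%) of the 44 ribosomal protein genes from the RSEM table (horizontal) and the kallisto-type table (vertical), with the line of equal shares. Rpl7, Rpl35a, Rpl41 and Rps14 lie furthest below the line, and Rpl12 and Rpl31 furthest above it.

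Few ribosomal protein genes passed a test for a change with the labelled amount of RNA, and most had a negative slope. The amount is the only difference between libraries that the labels give, with 1 library per amount, and amount and replicate cannot be told apart. The test was edgeR's quasi-likelihood test on all genes, with Benjamini-Hochberg adjustment. Each gene had 1 residual degree of freedom, beside 16.9 prior degrees of freedom shared across genes. The error variance behind each SE and p-value was thus mostly borrowed from other genes. By this test 5 of 79 members were lower at an adjusted p under 0.05, against 1.41% of all 15077 genes. None were higher, against 2.98% of all genes. At an unadjusted p under 0.05 there were 25 of 79 members and 3236 of 15077 genes. The slope was negative in 74 of 79, with a median of -0.32 log2 units per doubling of RNA against -0.01 over all genes. Without replicate 2 the median was -0.21, a value from 2 libraries with no test. The ribosomal DNA locus also took its smallest share in the library with the most RNA. Without its 3 genes 5 members were again called, but the TMM size factors already set extreme genes aside. That check therefore cannot tell whether library composition has a part in the slopes, which was not tested.

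The 5 genes called lower were Rps10, Rps18, Rpl3, Rpl10a and Rpl12. All 5 are among the 23 of 83 members with a gene on the opposite strand. In the same order, the whole opposite-strand genes had 0, 2232, 3945, 51 and 3246 counts over the libraries. The part of antisense reads in these slopes was not tested. Rpl3 had 35.1, 100 and 65.0 normalised CPM in replicates 1, 2 and 3, a slope of -0.75 (SE 0.14, adjusted p = 0.0043 by edgeR). Rpl10a had 30.4, 72.8 and 42.3, a slope of -0.63 (SE 0.14, adjusted p = 0.0135 by edgeR). Both ordered the libraries by amount, highest at 250 ng. Rps18, of the small subunit head, had 5.04, 14.4 and 6.74, a slope of -0.77 (SE 0.19, adjusted p = 0.027 by edgeR). Rps10, a head protein that is ubiquitinated on stalled ribosomes, had 1.82, 6.58 and 4.89, a slope of -0.88 (SE 0.24, adjusted p = 0.0464 by edgeR), and Rpl12 had 13.8, 29.5 and 20.1, a slope of -0.55 (SE 0.15, adjusted p = 0.0476 by edgeR). From 2 libraries each, the slope of Rps18 was -1.08 without replicate 1 and -0.41 without replicate 2, and that of Rps10 was -0.42 and -1.37. Rps10 and Rpl12 lie close to the threshold, and Rpl12 crosses it with other size factors (adjusted p = 0.0504 by edgeR). Rpl32 had the second most negative slope, -0.77 (SE 0.32), from few reads and did not pass.

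The largest positive slopes were those of Rpl21 (0.35, SE 0.19), Rps20 (0.29, SE 0.17) and Rpl36 (0.21, SE 0.30), none of which passed. Their direction turned under other settings, to -0.31 for Rpl21 and -0.37 for Rps20 without replicate 1 and to -0.037 for Rpl36 with kallisto-type counts. Rpl10 and Rps9, the 2 most abundant members, had slopes of -0.16 (SE 0.14) and -0.14 (SE 0.14). Of 37 ribosome biogenesis genes 2 were lower, Noc2l (-0.57, SE 0.16) and Rrp12 (-0.71, SE 0.20), both factors of subunit assembly; 32 of the 37 slopes were negative, with a median of -0.30. Of 18 translation genes none passed, 13 slopes were negative and the median was -0.23. Of 70 mitochondrial ribosomal protein genes 1 was higher, 49 slopes were negative and the median was -0.21.

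**Figure D5:**
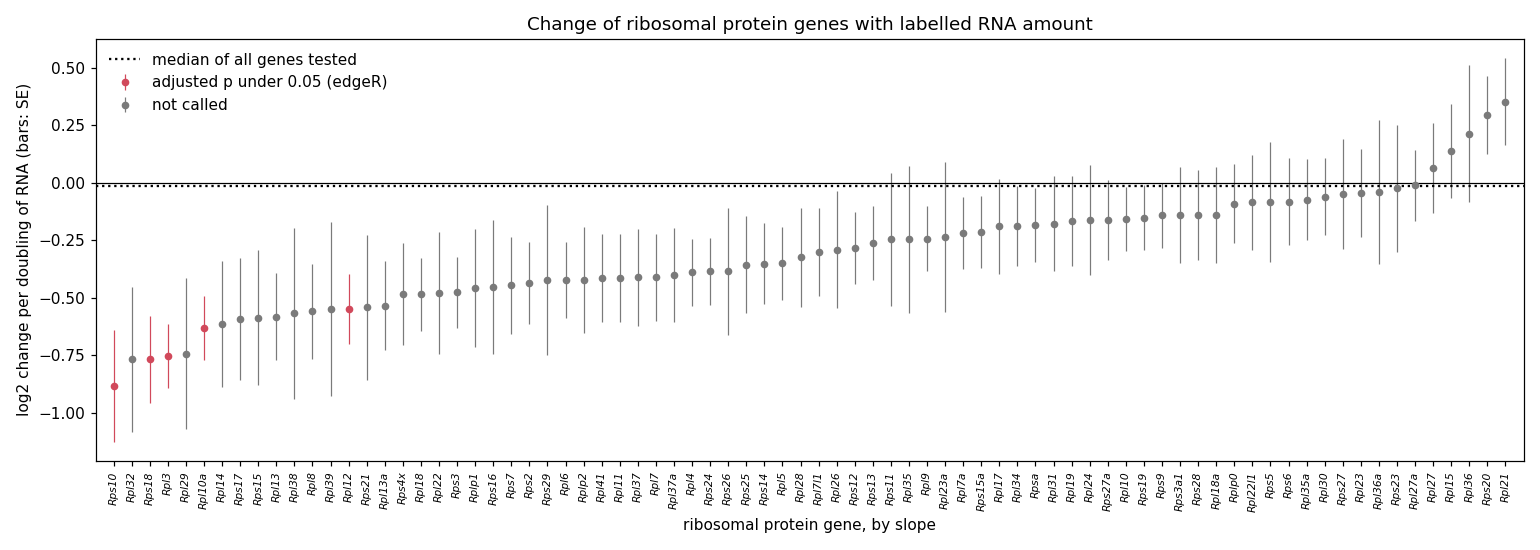
Slope of 78 of the 79 tested ribosomal protein genes in log2 units per doubling of labelled RNA, bars for SE, red where the adjusted p was under 0.05 by edgeR. All but 5 of the slopes are below 0, and the 5 called genes are all negative.

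The next comparison asked whether the retained-intron part of these genes moved apart from the rest. For the ratio of retained-intron counts to other counts, limma called 0 of the 44 genes, against 0.64% of 5624 genes in either direction, and 0 of the 44 had an unadjusted p under 0.05, against 425 of 5624. At the share called over all genes, a count of 0 in 44 says nothing particular about the members. The median slope of the log2 ratio was 0.10 per doubling over members and 0.12 over all genes, and -0.30 and -0.14 without replicate 1. In the genes called lower in level, the ratio had a slope of 0.19 (SE 0.38) in Rpl3, -0.10 (SE 0.35) in Rpl10a, -0.55 (SE 0.38) in Rps18 and -0.47 (SE 0.30) in Rpl12. With 3 libraries, slopes within about 2 SE of each of these values cannot be told apart from it. Here too the error variance behind each SE and p-value was borrowed from other genes. These SE are thus not the spread of a gene's own 3 libraries. The largest positive ratio slopes were those of Rps28 (0.73, SE 0.46), Rpl5 (0.67, SE 0.41) and Rpl31 (0.52, SE 0.52), and the most negative was that of Rps20 (-0.65, SE 0.39).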

How the data were processed

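RNA of the chromatin fraction was measured in 3 libraries of 1 group. The authors deposited, per the file headers, estimated counts and TPM per gene and per transcript as RSEM writes them, and estimated counts and TPM per transcript in a kallisto-type table, on mm10 with GENCODE M21. The sources used here name no aligner, strand setting or filter. Sequences and gene structures came from the GENCODE M21 transcripts and annotation.

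TPM was recomputed from the deposited expected counts over genes of at least 300 nt. Expected counts on retained-intron transcripts, as a percent of all those of the gene, gave the retained-intron share. Expected counts were rounded and fitted on the log2 of the RNA amount with edgeR 4.0.16 (TMM, filterByExpr with the design, quasi-likelihood F test) in R 4.3.3, and log2 ratios (pseudocount 0.5) with limma 3.58.1. DESeq2 1.42.0 was an alternative. Tables and figures were made with Python 3.11.15.

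The members, gene lists and comparisons were chosen with earlier results of these data known. Some settings were also changed after results were seen. The edgeR fit was run with 6 combinations of low-count filter, gene length and robust fitting, which called from 593 to 1101 genes in all and 4 to 6 members; the one reported is the one first written, and the others are given as alternatives. The limma variance trend first ran on total counts and called 115 genes and 0 members. On simulated data with a slope of 1 that version made 61 false calls beside 174 true ones, so the trend was put on the precision of the ratio, which made 11 beside 167 of 200. At a slope of 0.5 both versions recovered 0 of 200, so smaller ratio changes would be missed. The edgeR fit recovered 185 of 200 genes of slope 1 where dispersion was 0.02 (4 calls were false) and 28 where it was 0.1 (0 were false). At a slope of 0.5 it recovered 46 of 200 at a dispersion of 0.02 (3 calls were false) and 0 of 200 at 0.1. Most level changes of that size or smaller would thus be missed.

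Genes were named by rule: the 8 highest and 6 lowest by level and by share, every member called with the amount, the 3 largest slopes each way, the 3 highest decay and processed-transcript shares, the 4 largest gaps between the tables, the stalk genes, Rpsa and the paralogous forms. Others named were chosen after their values were seen. The values of 1 member are not reported here.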

Additional observations from a re-analysis of the deposited data

How the results depend on the processing

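No paired analysis was possible because all libraries belong to 1 group. The median level of the 83 genes, 23.0 TPM, was 8.34 in the deposited TPM, 14.4 in the kallisto-type table, 8.35 scaled over genes of any length and 5.89 as CPM. The median share of 62.3% was 59.3% from deposited TPM, 49.4% from kallisto-type counts (57 genes), 67.4% at a minimum of 200 counts (16 genes, 11 of them over 50%) and 65.0% over retained-intron plus coding counts. Over all genes the median of 26.1% was 42.8%, 30.6%, 25.7% and 29.2% in the same order. At a minimum of 200 counts 23.7% of all genes were over 50%. With 1 library left out the median share of members ran from 61.8% to 62.6%, and the level from 21.4 to 24.1 TPM.

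Of the members, edgeR called 4 with RLE size factors, 6 with no low-count filter and 5 with kallisto-type counts; DESeq2 called 2 of the 39 to which it gave an adjusted p. The total over all genes, 661, was 1181 with no low-count filter and 364 with DESeq2. Among settings added after seeing the data, it was 1101 with the filter applied without the design, 1032 with that filter on genes of at least 300 nt, 741 on those genes with the first filter, 593 with robust fitting and 1080 with robust fitting and the filter without the design; these called 6, 6, 5, 4 and 6 members. Rpl12 did not pass with RLE, robust fitting or DESeq2. The median slope of members ran from -0.46 to -0.21 with 1 library left out, values with no test. With 1 library left out, the slope of Rps20 ran from -0.37 to 0.95 and that of Rpl21 from -0.31 to 1.00, the lowest without replicate 1. Without replicate 2 that of Rps18 was -0.41. The slope of Rpl36 was -0.037 with kallisto-type counts; the cause was not tested.

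For the ratio, 0 members were called under every setting with a test, while the total over all genes, 36, was 23 with a pseudocount of 5, 18 at a minimum of 200, 117 with kallisto-type counts and 115 with the trend on total counts. The median ratio slope of members, 0.10, ran from -0.30 without replicate 1 to 0.29 without replicate 2, so its sign rests on replicate 1. The ratio slopes ran from -0.75 to 1.79 for Rpl31 and from -0.44 to 1.78 for Rpl5.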
